A study of Mus musculus with 9 samples.

Results

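The genes described here are 7 that set how brain tissue receives corticosteroids and corticotropin-releasing hormone (CRH): Nr3c1, Nr3c2, Fkbp4, Hsd11b1, Crhr1, Crhr2 and Crhbp. They were taken by symbol from the deposited table of 21899 mouse genes, each symbol matched 1 row, and all 7 passed the filter on low counts that left 14837 genes for testing. RNA was sequenced from dissected PVT (paraventricular thalamus, part of the midline thalamus and linked to arousal and stress) of wild-type mice. The LPS 7d group was collected 7 days after an intraperitoneal injection of LPS (lipopolysaccharide, the endotoxin of Gram-negative bacteria, given to provoke systemic inflammation). The LPS 1d group was collected 1 day after LPS, and the PBS 1d group was collected 1 day after an injection of phosphate-buffered saline. Each group held 3 libraries, and all mice carried the same wild-type genotype. A saline group at 7 days was not analysed here, so time after injection and LPS cannot be told apart in the LPS 7d against PBS 1d comparison. The labels give no age, sex or strain and leave unsaid whether each library is its own animal. The p-values therefore reflect variation among libraries that may be only technical.

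Corticosterone, the main glucocorticoid of mice, acts in the brain through a pair of nuclear receptors, the high-affinity mineralocorticoid receptor and the lower-affinity glucocorticoid receptor. Both are held ready for hormone by a chaperone complex of heat shock proteins and immunophilins, and the steroid that reaches them is set in part by enzymes inside the cell. CRH and the urocortins act on G protein-coupled receptors that chiefly raise cyclic AMP, and a secreted binding protein takes up free peptide.

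The 7 genes did not move as a block. At 1 day after LPS, 4 of 7 passed the test against PBS 1d: Nr3c2 was higher, and Fkbp4, Crhr1 and Crhbp were lower. At 7 days after LPS, 6 of 7 passed against PBS 1d, with Crhr1, Hsd11b1 and Fkbp4 higher and Crhr2, Crhbp and Nr3c1 lower. Between LPS 7d and LPS 1d, 6 of 7 passed, with Crhr1, Hsd11b1 and Fkbp4 higher at 7 days and Crhr2, Nr3c2 and Nr3c1 lower. A gene passed when its p-value from edgeR's quasi-likelihood test, adjusted over all genes by the Benjamini-Hochberg method, was under 0.05.

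These counts stand against a high background of calls. In LPS 1d against PBS 1d, 49.1% of all tested genes passed, 24.9% higher and 24.2% lower. In LPS 7d against PBS 1d, 35.6% passed, 16.8% higher and 18.9% lower. In LPS 7d against LPS 1d, 56.6% passed, 27.5% higher and 29.1% lower. Scaling by library size alone turned the split in LPS 7d against PBS 1d, to 3183 genes higher and 2326 lower from the main 2489 higher and 2798 lower. The median absolute log2 fold change over all tested genes was 0.267 for LPS 7d against LPS 1d, 0.169 for LPS 7d against PBS 1d and 0.223 for LPS 1d against PBS 1d. The comparisons share libraries and are not independent of each other.

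**Figure D1:**
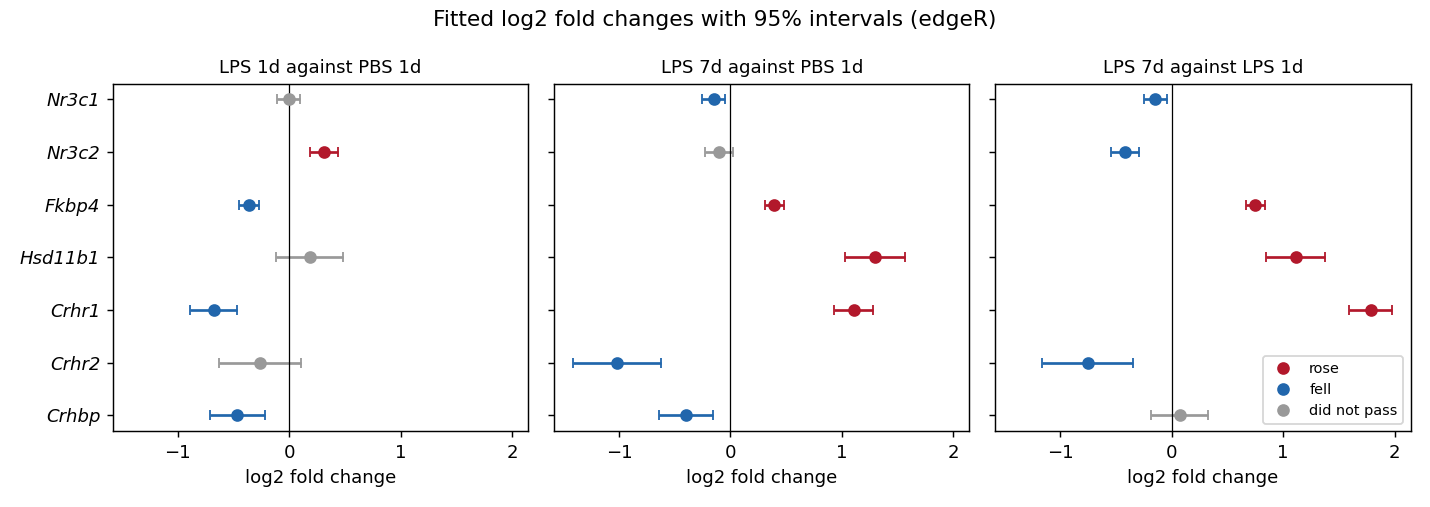
Log2 fold change (horizontal axis) of each of the 7 genes in each comparison, with 95% intervals from the edgeR fit, in red where the gene rose, blue where it fell and grey where it did not pass. Crhr1 has the widest span, at 1.78 in LPS 7d against LPS 1d and -0.68 in LPS 1d against PBS 1d, while Nr3c1 lies close to 0 throughout.

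Library depth ran between 13211422 and 17210526 counted reads, and midline thalamic markers were present in every library, with summed levels of 732 to 752 CPM (read counts scaled to a common library total) in LPS 7d, 773 to 783 in LPS 1d and 828 to 846 in PBS 1d. Of the 7 midline thalamic markers, 2 were higher and 5 lower in LPS 1d against PBS 1d. In LPS 7d against PBS 1d 1 was higher and 5 lower, and in LPS 7d against LPS 1d 2 higher and 3 lower. Markers of other brain regions also moved with the groups. The 8 cerebellar markers summed to 1360 to 1400 CPM in LPS 7d, 65.4 to 69.7 in LPS 1d and 78.3 to 88.3 in PBS 1d, and 8 of 8 were higher at 7 days in both comparisons. The 8 hindbrain markers summed to 70.2 to 79.6 CPM in LPS 7d, 4.05 to 6.15 in LPS 1d (with 4 at 0, among them Hoxa5, Hoxb5 and Hoxc4) and 6.45 to 8.75 in PBS 1d (with 5 at 0, among them Hoxa5, Hoxb5, Hoxb3 and Hoxc4). The 8 striatal markers summed to 543 to 557 CPM in LPS 7d, 824 to 841 in LPS 1d and 1260 to 1310 in PBS 1d. The 4 Y-linked genes summed to 90.5 to 102 CPM in LPS 7d, 81.5 to 85.2 in LPS 1d and 0 to 0.0588 in PBS 1d. Y-linked genes thus set PBS 1d apart from both LPS groups, and in LPS 7d against LPS 1d 1 of 4 was higher and 0 lower. By these genes the PBS 1d libraries read as female and all LPS libraries as holding male tissue, although the labels give no sex. Cerebellar and hindbrain markers set LPS 7d apart from both 1-day groups. In the comparisons that it separates, each of these cannot be told apart from the treatment or time. In bulk tissue, fewer cells of a type and less RNA per cell cannot be told apart either.

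Promoter sequences of 3 of the genes are shown because Fkbp4 and Crhr1 moved together, lower at 1 day and higher at 7 days, while Nr3c2 was higher at 1 day. Each sequence runs 5′ to 3′ on the gene's strand, with 250 bases before and 50 after the start of transcription, from RefSeq on GRCm38.p6. Fkbp4 is at chr6:128438607-128438906 (minus strand), Crhr1 at chr11:104132531-104132830 (plus strand) and Nr3c2 at chr8:76902080-76902379 (plus strand). Capitals mark a match to the heat shock element letters GAANNTTC.
Fkbp4: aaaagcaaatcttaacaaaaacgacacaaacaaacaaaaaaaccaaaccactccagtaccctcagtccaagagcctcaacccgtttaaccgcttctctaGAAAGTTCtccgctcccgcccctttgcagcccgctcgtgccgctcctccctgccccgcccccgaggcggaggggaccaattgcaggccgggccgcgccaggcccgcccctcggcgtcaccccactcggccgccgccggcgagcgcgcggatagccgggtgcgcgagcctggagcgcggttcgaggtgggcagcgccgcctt
Crhr1: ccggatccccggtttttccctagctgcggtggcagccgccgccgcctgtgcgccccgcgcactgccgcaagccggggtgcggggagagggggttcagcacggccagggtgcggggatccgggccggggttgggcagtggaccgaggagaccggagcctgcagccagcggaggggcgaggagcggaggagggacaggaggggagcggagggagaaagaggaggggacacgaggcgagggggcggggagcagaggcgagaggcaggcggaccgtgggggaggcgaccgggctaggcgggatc
Nr3c2: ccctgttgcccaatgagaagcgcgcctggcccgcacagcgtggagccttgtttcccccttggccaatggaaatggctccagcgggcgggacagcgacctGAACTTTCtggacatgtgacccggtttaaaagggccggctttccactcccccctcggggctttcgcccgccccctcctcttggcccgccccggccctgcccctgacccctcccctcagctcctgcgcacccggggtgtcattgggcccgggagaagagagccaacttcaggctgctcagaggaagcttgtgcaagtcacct
Of the 7 genes, 6 had a promoter in the RefSeq table and Nr3c1 had none, so it was not searched. On both strands, 4 motifs were searched. The heat shock element was found in Fkbp4 and Nr3c2, in each starting 151 bases before the start, and occurred in 7.86% of all 32851 promoters. The glucocorticoid receptor half-site AGAACA (in 19% of promoters), the full glucocorticoid response element AGAACANNNTGTTCT, which contains that half-site (0.00913%), and the cyclic AMP response element TGACGTCA (1.79%) were in none of the 6 windows. Among the 3 promoters shown, Fkbp4 and Nr3c2 hold the match and Crhr1 holds none. These promoters were picked by how the genes moved, and a part of the match in the changes was not tested. A match is a string of letters and not a mapped binding site.

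Nr3c1, which encodes the glucocorticoid receptor (GRCm39 chr18:39543598-39652474), differed little between the groups. It had 106.6, 91.8 and 96.2 CPM in LPS 7d, 108, 116 and 102 in LPS 1d and 106.8, 109.8 and 110.4 in PBS 1d. All 3 LPS 7d libraries lay below the PBS 1d libraries, the highest by a narrow margin, while LPS 1d and PBS 1d overlapped. Against PBS 1d, LPS 7d was lower by a log2 fold change of -0.15 ± 0.05 (SE; edgeR adjusted p = 0.0188). Against LPS 1d, LPS 7d was lower by -0.15 ± 0.05 (edgeR adjusted p = 0.0148), although those groups overlapped. At 1 day the log2 fold change was -0.0045, with a 95% interval of -0.11 to 0.10 (edgeR adjusted p = 0.953).

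Both 7-day calls of Nr3c1 were fragile. With scaling by library size alone the log2 fold change was -0.11 against PBS 1d (edgeR adjusted p = 0.0937) and -0.09 against LPS 1d (adjusted p = 0.148). Against PBS 1d the call was also lost without PBS 1d replicate 3 (-0.13, adjusted p = 0.0795), LPS 7d replicate 2 (-0.10, adjusted p = 0.177) or LPS 7d replicate 3 (-0.13, adjusted p = 0.0671). Against LPS 1d it was lost without LPS 1d replicate 2 (-0.10, adjusted p = 0.166), LPS 7d replicate 2 (-0.10, adjusted p = 0.155) or LPS 7d replicate 3 (-0.13, adjusted p = 0.0556).

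Nr3c2, which encodes the mineralocorticoid receptor (GRCm39 chr8:77626070-77971641), was higher at 1 day and not at 7 days. It had 50.2, 46.8 and 46.0 CPM in LPS 7d, 67.7, 60.2 and 63.2 in LPS 1d and 49.7, 49.0 and 55.3 in PBS 1d. Every LPS 1d library was above every library of the other groups, and LPS 7d and PBS 1d overlapped. LPS 1d was 1.24-fold higher than PBS 1d (log2 0.31 ± 0.06, SE; edgeR adjusted p = 4.09e-05). LPS 7d was at 0.750 of the LPS 1d level (log2 -0.42 ± 0.06; edgeR adjusted p = 1.27e-07). LPS 7d against PBS 1d gave a log2 fold change of -0.10 with a 95% interval of -0.23 to 0.02 (edgeR adjusted p = 0.204). Hippocampal markers, from a region rich in this receptor, summed to 312 to 348 CPM in LPS 7d, 430 to 437 in LPS 1d and 363 to 379 in PBS 1d. Of these 7 markers, 4 were higher and 0 lower in LPS 1d against PBS 1d. In LPS 7d 2 were higher and 1 lower against PBS 1d, and 1 higher and 4 lower against LPS 1d. The part of the hippocampal markers in the Nr3c2 differences was not tested.

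**Figure D2:**
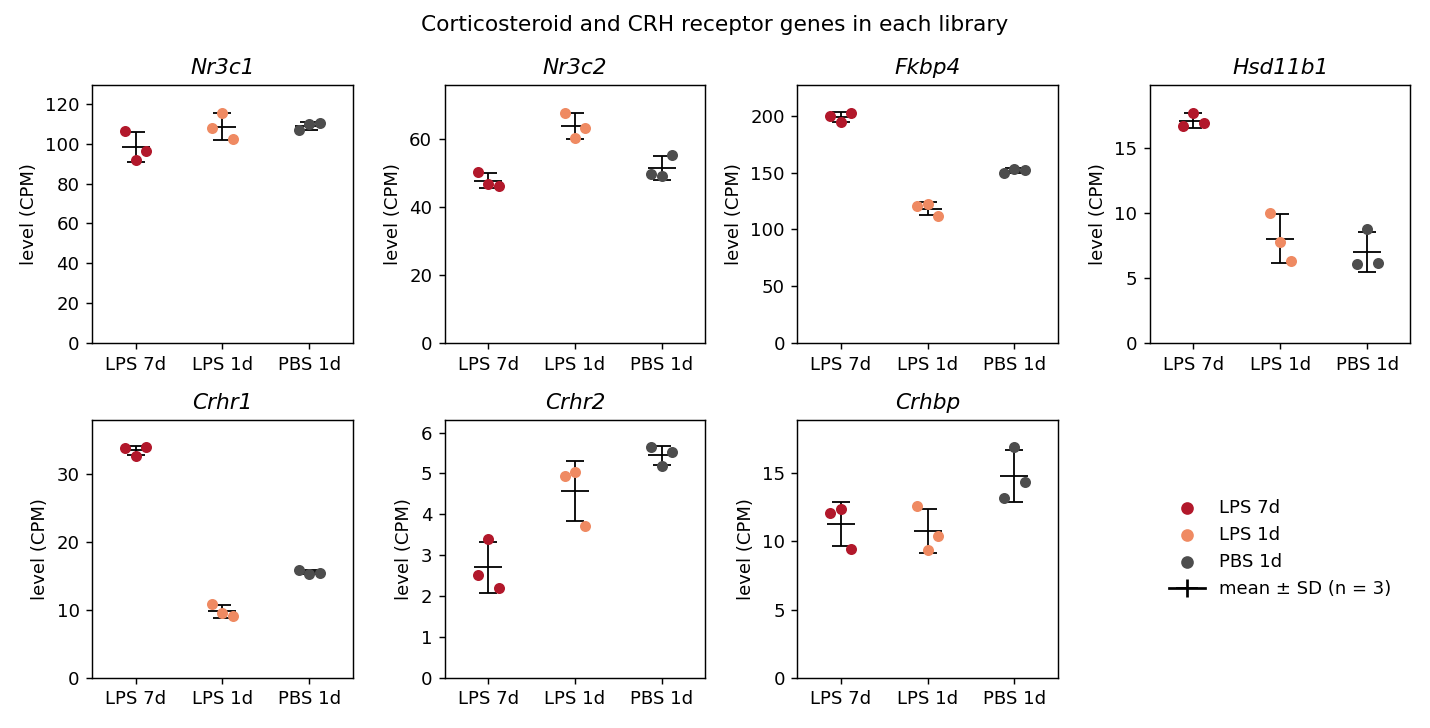
Level in CPM (vertical axes, from 0) of each of the 7 genes in each library, with the mean and SD of 3 libraries in LPS 7d, LPS 1d and PBS 1d. Crhr1 averaged 33.4, 9.76 and 15.5 CPM and Hsd11b1 17.1, 8.01 and 6.97 CPM in those groups, while Nr3c1 averaged 98.2, 109 and 109 CPM.

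Within each library, the ratio of Nr3c2 to Nr3c1 on the length-scaled FPKM values was 0.559, 0.605 and 0.568 in LPS 7d, 0.743, 0.618 and 0.734 in LPS 1d and 0.552, 0.529 and 0.595 in PBS 1d. Glucocorticoid receptor mRNA was thus the more abundant in all 9 libraries, and all LPS 1d ratios exceeded those of the other groups. The difference in mean log2 ratio was -0.27 for LPS 7d minus LPS 1d and 0.32 for LPS 1d minus PBS 1d, each with p = 0.1 in a two-sided exact permutation test, the smallest that 3 against 3 allows. For LPS 7d minus PBS 1d it was 0.05 (exact permutation p = 0.4).

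Fkbp4 encodes FKBP52, an HSP90-bound immunophilin that promotes steroid receptor activity and transport to the nucleus (GRCm39 chr6:128406698-128415640). It was lower at 1 day and higher at 7 days. It had 199.9, 195 and 203 CPM in LPS 7d, 121, 123 and 112 in LPS 1d and 149.9, 154 and 152 in PBS 1d. The 3 groups did not overlap, and the spread within each was small. LPS 7d was 1.31-fold above PBS 1d (log2 0.39 ± 0.04, SE; edgeR adjusted p = 6.87e-11) and 1.68-fold above LPS 1d (log2 0.75 ± 0.04; edgeR adjusted p = 1.28e-20). LPS 1d was at 0.780 of the PBS 1d level (log2 -0.36 ± 0.04; edgeR adjusted p = 2.36e-09). The 7-day difference ran with the cerebellar sum of 1360 to 1400 CPM in LPS 7d against 78.3 to 88.3 in PBS 1d, and the part of that tissue in it was not tested.

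Fkbp5 encodes FKBP51, the immunophilin that competes with FKBP52 for the receptor complex and dampens it, and it moved the other way. It averaged 24.2 ± 2.77 CPM in LPS 7d, 116 ± 1.69 in LPS 1d and 34.3 ± 1.29 in PBS 1d (SD, n = 3 each). The log2 fold change was -0.50 ± 0.07 for LPS 7d against PBS 1d (edgeR adjusted p = 8.54e-08) and 1.76 ± 0.06 for LPS 1d against PBS 1d (edgeR adjusted p = 2.39e-29). The ratio of Fkbp5 to Fkbp4 FPKM was 0.0405, 0.0351 and 0.0323 in LPS 7d, 0.289, 0.276 and 0.306 in LPS 1d and 0.0672, 0.0685 and 0.0642 in PBS 1d. The groups did not overlap: the ratio was highest in LPS 1d and lowest in LPS 7d. The difference in mean log2 ratio was -3.02 for LPS 7d minus LPS 1d, -0.90 for LPS 7d minus PBS 1d and 2.12 for LPS 1d minus PBS 1d, each at the exact permutation minimum of p = 0.1.

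**Figure D3:**
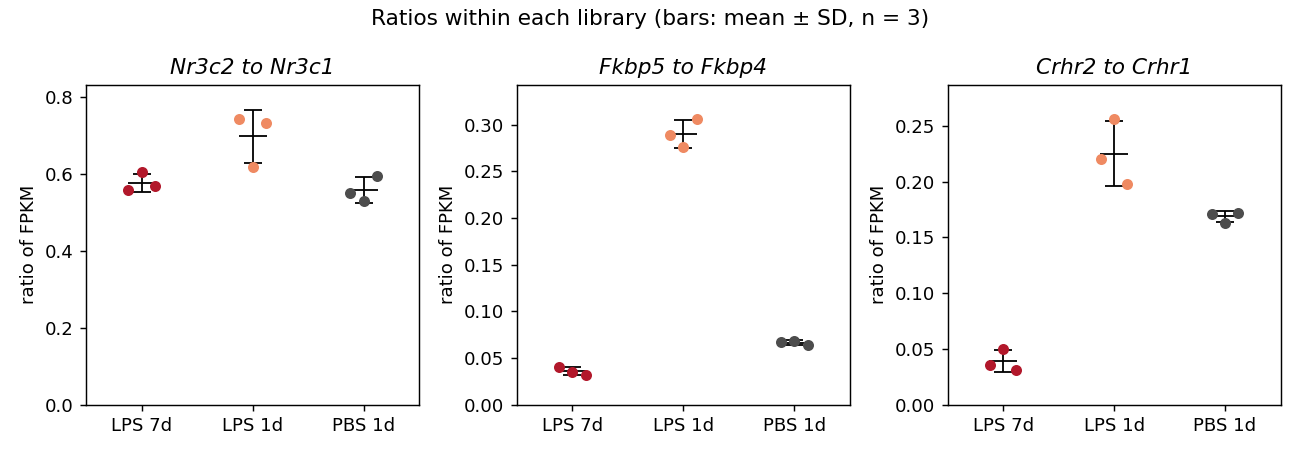
Ratio of FPKM within each library (vertical axes, from 0) for Nr3c2 to Nr3c1, Fkbp5 to Fkbp4 and Crhr2 to Crhr1, with the mean and SD of 3 libraries in LPS 7d, LPS 1d and PBS 1d. The Fkbp5 to Fkbp4 ratio averaged 0.0359, 0.290 and 0.0666 and the Crhr2 to Crhr1 ratio 0.0389, 0.225 and 0.169 in those groups.

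Among 15 other genes of the receptor chaperone complex, 10 were higher and 1 lower in LPS 7d against LPS 1d, 5 higher and 2 lower in LPS 7d against PBS 1d, and 2 higher and 7 lower in LPS 1d against PBS 1d. Their median log2 fold changes were 0.148, 0.061 and -0.116 in the same order, beside -0.001, 0.002 and -0.010 over all tested genes. Hspa8, the constitutive HSC70 chaperone, averaged 1431 ± 24.2 CPM in LPS 7d, 884 ± 15.8 in LPS 1d and 999 ± 42.3 in PBS 1d (SD, n = 3 each). It was higher in LPS 7d than in PBS 1d by a log2 fold change of 0.52 ± 0.03 (edgeR adjusted p = 9.36e-19) and lower in LPS 1d than in PBS 1d by -0.18 ± 0.03 (edgeR adjusted p = 1.98e-05). Stip1, the HOP adaptor that links HSP70 to HSP90, gave 0.16 ± 0.04 (edgeR adjusted p = 0.000905) and -0.23 ± 0.04 (edgeR adjusted p = 4.07e-06) in those comparisons. Like Fkbp4, both were lower at 1 day and higher at 7 days.

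Hsd11b1 encodes 11β-hydroxysteroid dehydrogenase type 1, which regenerates active corticosterone from its inert 11-keto form inside cells (GRCm39 chr1:192903942-192946383). It was higher in LPS 7d than in both other groups. It had 16.7, 17.7 and 16.9 CPM in LPS 7d, 10.02, 7.73 and 6.27 in LPS 1d and 6.05, 8.73 and 6.13 in PBS 1d. Every LPS 7d library was above all others, while LPS 1d and PBS 1d overlapped. LPS 7d was 2.45-fold above PBS 1d (log2 1.29 ± 0.13, SE; edgeR adjusted p = 1.34e-11) and 2.16-fold above LPS 1d (log2 1.11 ± 0.13; edgeR adjusted p = 4.27e-10). At 1 day the log2 fold change was 0.18 with a 95% interval of -0.12 to 0.48 (edgeR adjusted p = 0.325).

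Lamb3, a laminin subunit gene named here after its values were seen, overlaps Hsd11b1 on the opposite strand, and whether reads were counted by strand is not given in the sources used here. Lamb3 averaged 3.25 ± 0.753 CPM in LPS 7d and 5.24 ± 1.86 in PBS 1d (SD, n = 3 each), lower in LPS 7d by a log2 fold change of -0.68 (edgeR adjusted p = 0.0102). Sharing of reads between Lamb3 and Hsd11b1 was not tested. The Hsd11b1 difference at 7 days ran with the cerebellar and hindbrain markers, and their part in it was not tested.

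Of 13 other genes of steroid metabolism and transport, 12 were in the table and 7 were tested. In LPS 7d against LPS 1d 3 were higher and 1 lower, in LPS 7d against PBS 1d 1 was higher, and in LPS 1d against PBS 1d 1 was higher and 3 lower. Their median log2 fold changes were 0.149, 0.064 and 0.085. H6pd, whose product supplies the NADPH that HSD11B1 uses in the endoplasmic reticulum, had 14.2, 17.2 and 15.2 CPM in LPS 7d, 14.6, 12.8 and 14.5 in LPS 1d and 11.5, 13.7 and 13.4 in PBS 1d. It was the gene that was higher in LPS 7d against PBS 1d (log2 0.27 ± 0.11; edgeR adjusted p = 0.0447). Hsd11b2, the enzyme that inactivates corticosterone and which was named after its values were seen, had 2, 4 and 4 reads in LPS 7d, 4, 3 and 1 in LPS 1d and 9, 0 and 3 in PBS 1d, too few to test.

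Abcb1a, a drug and steroid efflux pump of brain endothelium, was lower at 1 day. It averaged 33.1 ± 1.74 CPM in LPS 7d, 20.8 ± 0.730 in LPS 1d and 31.7 ± 0.128 in PBS 1d (SD, n = 3 each). The log2 fold change was 0.67 ± 0.08 for LPS 7d against LPS 1d (edgeR adjusted p = 2.64e-10) and -0.61 ± 0.08 for LPS 1d against PBS 1d (edgeR adjusted p = 8.75e-09). Its close paralog Abcb1b moved the other way, at -1.15 ± 0.19 (edgeR adjusted p = 8.27e-07) and 1.01 ± 0.19 (edgeR adjusted p = 1.1e-05) in those comparisons, and both values are uncertain, since sharing of reads between the paralogs was not tested.

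Crhr1, the main CRH receptor of the brain, was lower at 1 day and higher at 7 days (GRCm39 chr11:104023681-104066349). It had 33.8, 32.6 and 33.9 CPM in LPS 7d, 10.8, 9.47 and 9.01 in LPS 1d and 15.9, 15.3 and 15.4 in PBS 1d. The groups did not overlap, with LPS 7d highest and LPS 1d lowest. LPS 7d was 2.15-fold above PBS 1d (log2 1.11 ± 0.09, SE; edgeR adjusted p = 1.55e-15) and 3.44-fold above LPS 1d (log2 1.78 ± 0.09; edgeR adjusted p = 2.69e-22). LPS 1d was at 0.625 of the PBS 1d level (log2 -0.68 ± 0.10; edgeR adjusted p = 3.1e-07). The 7-day difference ran with the cerebellar sum, 1360 to 1400 CPM in LPS 7d against 65.4 to 69.7 in LPS 1d and 78.3 to 88.3 in PBS 1d, and its part was not tested. The 1-day difference stood beside striatal sums of 824 to 841 CPM in LPS 1d and 1260 to 1310 in PBS 1d, whose part was not tested either.

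Crhr2, the receptor preferred by the urocortins, was the lowest of the 7 on the FPKM scale and was lower at 7 days (GRCm39 chr6:55067034-55110001). It had 41, 55 and 37 reads in LPS 7d, 64, 81 and 61 in LPS 1d and 96, 82 and 81 in PBS 1d, or 2.51, 3.39 and 2.19 CPM, 4.93, 5.05 and 3.71 CPM and 5.64, 5.19 and 5.52 CPM. The LPS 7d libraries were below all others. LPS 7d was at 0.495 of the PBS 1d level (log2 -1.02 ± 0.20, SE; edgeR adjusted p = 3.64e-05) and at 0.593 of the LPS 1d level (log2 -0.75 ± 0.20; edgeR adjusted p = 0.0015). LPS 1d also lay below PBS 1d in every library, but the log2 fold change of -0.26, with a 95% interval of -0.63 to 0.11, did not pass (edgeR adjusted p = 0.242). Choroid plexus markers, 6 genes, summed to 352 to 363 CPM in LPS 7d, 474 to 489 in LPS 1d and 450 to 511 in PBS 1d, and striatal markers were also lowest in LPS 7d, and neither was tested as a part of the Crhr2 difference.

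The ratio of Crhr2 to Crhr1 FPKM was 0.0358, 0.05 and 0.0311 in LPS 7d, 0.220, 0.256 and 0.198 in LPS 1d and 0.171, 0.163 and 0.172 in PBS 1d. Crhr1 mRNA was the more abundant per length in all 9 libraries. The difference in mean log2 ratio was -2.55 for LPS 7d minus LPS 1d, -2.14 for LPS 7d minus PBS 1d and 0.41 for LPS 1d minus PBS 1d, each at the two-sided exact permutation minimum of p = 0.1. The groups did not overlap in any of these comparisons.

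Crhbp, the secreted CRH-binding protein (GRCm39 chr13:95567879-95581432), was lower in both LPS groups than in PBS 1d. It had 12.1, 12.3 and 9.41 CPM in LPS 7d, 12.6, 9.35 and 10.4 in LPS 1d and 13.2, 16.9 and 14.4 in PBS 1d. All 6 LPS libraries were below all 3 PBS 1d libraries, and LPS 7d and LPS 1d overlapped. LPS 7d was at 0.761 (log2 -0.39 ± 0.12, SE; edgeR adjusted p = 0.0078) and LPS 1d at 0.723 (log2 -0.47 ± 0.12; edgeR adjusted p = 0.00139) of the PBS 1d level. LPS 7d against LPS 1d gave a log2 fold change of 0.07 with a 95% interval of -0.18 to 0.33 (edgeR adjusted p = 0.643). The 7-day call was lost without PBS 1d replicate 2 (-0.29, adjusted p = 0.0948) or LPS 7d replicate 3 (-0.28, adjusted p = 0.0931). The 7 GABAergic neuron markers summed to 1100 to 1140 CPM in LPS 7d, 1080 to 1100 in LPS 1d and 1250 to 1260 in PBS 1d, and their part was not tested. Y-linked genes, near 0 in PBS 1d only, divide the libraries in the same way. Sex, as read from these genes, and LPS cannot be told apart in either comparison with PBS 1d.

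Crh and the urocortin genes Ucn, Ucn2 and Ucn3, named after their values were seen, encode the peptides that act on these receptors. Crh had 5.45, 5.24 and 4.62 CPM in LPS 7d, 3.01, 4.61 and 2.43 in LPS 1d and 5.41, 4.43 and 4.36 in PBS 1d. LPS 1d was lower than PBS 1d by a log2 fold change of -0.50 ± 0.20 (edgeR adjusted p = 0.0378), with overlap between the groups. Ucn had 5, 3 and 6 reads in LPS 7d, 0, 1 and 2 in LPS 1d and 3, 3 and 8 in PBS 1d, and Ucn2 had at most 3 reads in any library, so both were left untested. Ucn3 had 18, 19 and 22 reads in LPS 7d, 10, 22 and 17 in LPS 1d and 29, 30 and 15 in PBS 1d, and it did not pass in any comparison.

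In the list of 12 CRH family and pituitary-adrenal genes, 8 were tested. In LPS 7d against LPS 1d 4 were higher and 0 lower, in LPS 7d against PBS 1d 0 were higher and 3 lower (1 higher and 1 lower with scaling by library size alone), and in LPS 1d against PBS 1d 0 were higher and 6 lower. The median log2 fold changes were 0.317, -0.085 and -0.513. Avp, which encodes vasopressin, averaged 15.3 ± 1.69 CPM in LPS 7d, 10.9 ± 1.31 in LPS 1d and 18.6 ± 2.47 in PBS 1d (SD, n = 3 each). It was lower than PBS 1d in LPS 7d (log2 -0.28 ± 0.11; edgeR adjusted p = 0.0368) and in LPS 1d (log2 -0.76 ± 0.11; edgeR adjusted p = 1.96e-07). Adcyap1, which encodes the peptide PACAP, averaged 21.4 ± 0.820 CPM in LPS 7d, 14.8 ± 0.875 in LPS 1d and 22.2 ± 0.855 in PBS 1d. It was lower in LPS 1d than in PBS 1d by -0.58 ± 0.09 (edgeR adjusted p = 8.29e-07). Hypothalamic markers, which include Avp, summed to 84.0 to 95.8 CPM in LPS 7d, 57.7 to 64.3 in LPS 1d and 96.1 to 109 in PBS 1d, and that content was not tested as a part of these differences. Pituitary markers, 6 genes on 7 rows, summed to 22.5 to 25.5 CPM in LPS 7d, 5.67 to 6.94 in LPS 1d and 11.1 to 12 in PBS 1d, with Pou1f1 and 1 of the 2 rows of Lhb at 0 in every group. Of the 5 tested, 3 were higher and 1 lower in LPS 7d against LPS 1d, 2 higher and 0 lower in LPS 7d against PBS 1d, and 0 higher and 3 lower in LPS 1d against PBS 1d. Their part in the differences of the list was not tested either.

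Among 23 genes of signalling below CRH receptors, 7 were higher and 10 lower in LPS 7d against LPS 1d, 3 higher and 14 lower in LPS 7d against PBS 1d, and 4 higher and 8 lower in LPS 1d against PBS 1d. The median log2 fold changes were -0.041 (0.016 with scaling by library size alone), -0.171 and -0.037. Adcy5, an adenylyl cyclase that is abundant in striatum, averaged 351 ± 2.71 CPM in LPS 7d, 419 ± 6.33 in LPS 1d and 663 ± 30.9 in PBS 1d (SD, n = 3 each). It was lower than PBS 1d in LPS 7d (log2 -0.92 ± 0.04; edgeR adjusted p = 2.69e-27) and in LPS 1d (log2 -0.66 ± 0.04; edgeR adjusted p = 3.42e-21), the direction of the striatal marker sum. Adcy1, a calmodulin-stimulated adenylyl cyclase, averaged 906 ± 18.1 CPM in LPS 7d, 580.3 ± 29.4 in LPS 1d and 577 ± 23.5 in PBS 1d. LPS 7d was above PBS 1d by a log2 fold change of 0.65 ± 0.04 (edgeR adjusted p = 4.74e-21), the direction of the cerebellar sum, and neither regional part was tested.

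Of 10 coregulators of nuclear receptors, 1 was higher and 9 lower in LPS 7d against LPS 1d, 0 higher and 5 lower in LPS 7d against PBS 1d (1 lower with scaling by library size alone), and 8 higher and 1 lower in LPS 1d against PBS 1d. The median log2 fold changes were -0.329, -0.112 and 0.196. Ncoa1, which encodes the coactivator SRC-1, averaged 169 ± 7.97 CPM in LPS 7d, 243 ± 4.72 in LPS 1d and 192 ± 9.34 in PBS 1d (SD, n = 3 each). Its log2 fold change was -0.19 ± 0.04 for LPS 7d against PBS 1d (edgeR adjusted p = 0.0004) and 0.34 ± 0.04 for LPS 1d against PBS 1d (edgeR adjusted p = 2.62e-09). Crebbp, the histone acetyltransferase CBP, was higher in LPS 1d than in PBS 1d by 0.54 ± 0.05 (edgeR adjusted p = 3.81e-12).

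Of 18 tested genes that glucocorticoids are known to induce, a list that includes Fkbp5, 0 were higher and 17 lower in LPS 7d against LPS 1d, 0 higher and 14 lower in LPS 7d against PBS 1d, and 17 higher and 1 lower in LPS 1d against PBS 1d. The median log2 fold changes were -1.362, -0.473 and 0.901. Over the same comparisons the receptor gene Nr3c1 had log2 fold changes of -0.15, -0.15 and -0.0045. The part of Nr3c1 level or of regional tissue in the differences of this list was not tested.

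**Figure D4:**
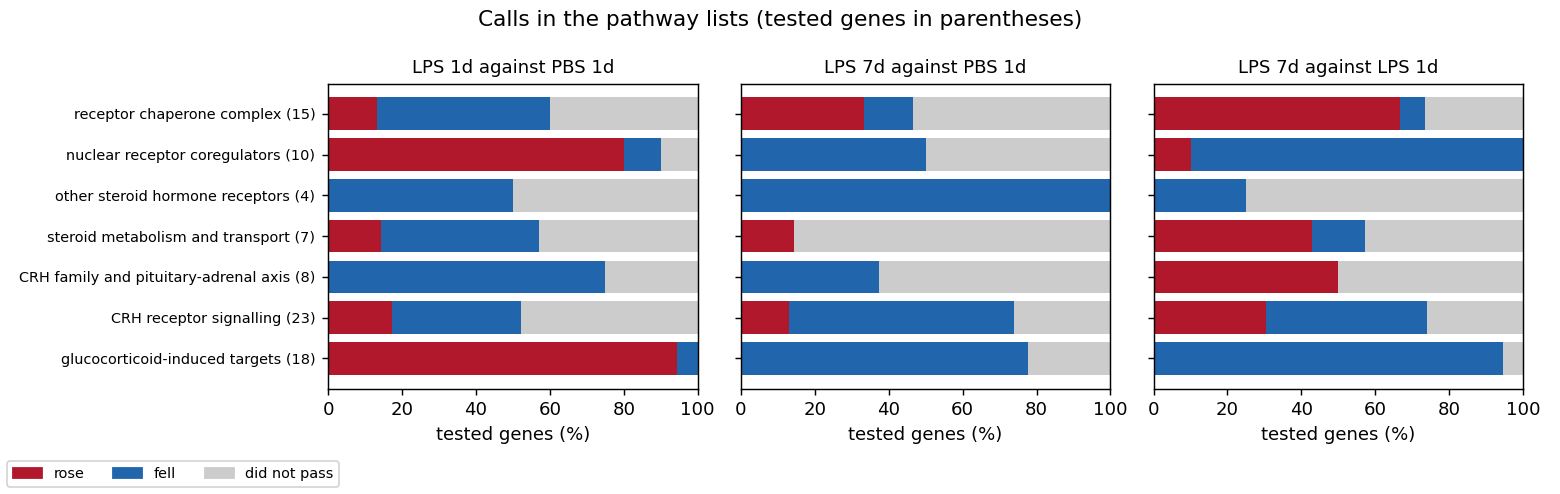
Percent of the tested genes of each pathway list (rows) that rose (red), fell (blue) or did not pass the edgeR test (grey) in each comparison (panels). The glucocorticoid-induced list has 17 of 18 genes higher in LPS 1d against PBS 1d and 14 of 18 lower in LPS 7d against PBS 1d.

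On the FPKM scale, which allows genes to be compared per length, Fkbp4 was the highest of the 7 in every group, at 72.8 ± 1.58 FPKM in LPS 7d, 41.6 ± 2.03 in LPS 1d and 54.0 ± 0.897 in PBS 1d (SD, n = 3 each). Crhr2 was the lowest, at 0.539 ± 0.124 FPKM in LPS 7d, 0.877 ± 0.142 in LPS 1d and 1.06 ± 0.0419 in PBS 1d, with Hsd11b1 next at 4.11 ± 0.119, 1.85 ± 0.437 and 1.63 ± 0.362 in the same groups. Crhr1 stood at 13.9 ± 0.321 FPKM in LPS 7d, which did not differ beyond the spread from Nr3c1 at 13.1 ± 1.10. In LPS 1d Crhr1 was at 3.9 ± 0.368 FPKM and Nr3c1 at 13.9 ± 0.862, and in PBS 1d they were at 6.28 ± 0.0888 and 14.1 ± 0.320. Nr3c2 and Crhbp lay within each other's spread in PBS 1d, at 7.89 ± 0.555 and 8.19 ± 1.08 FPKM, and further apart in LPS 1d, at 9.67 ± 0.566 and 5.88 ± 0.892.

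The genes whose log2 CPM followed each of the 7 most closely over the 9 libraries are given as a description, from 11526 genes with a mean of at least 5 CPM, and the points share the group differences in region. Fkbp4 was followed by Btbd3 (Pearson r = 0.998) and Hmcn1 (r = 0.995), and Crhr1 by Gpr37l1 (r = 0.997) and Wscd2 (r = 0.997). Gpr37l1, a G protein-coupled receptor gene, averaged 273 ± 6.08 CPM in LPS 7d, 152 ± 5.53 in LPS 1d and 188 ± 6.42 in PBS 1d (SD, n = 3 each). Hsd11b1 was followed by Mybpc1 (r = 0.987), at 14.9 ± 1.22 CPM in LPS 7d, 2.52 ± 0.749 in LPS 1d and 1.69 ± 0.697 in PBS 1d, and by Ndrg2 (r = 0.983). Crhr2 was followed by Rerg (r = 0.974) and Kctd1 (r = 0.969), and Nr3c2 by Ap2a2 (r = 0.985) and Mcm3ap (r = 0.983). Nr3c1 was followed by Crnkl1 (r = 0.947), and Crhbp by the serotonin receptor gene Htr7 (r = 0.940) and Rad1 (r = 0.928).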

How the data were processed

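Total RNA from mouse PVT tissue was sequenced after TruSeq library preparation, per the labels' protocols. The authors deposited 1 table with read counts per gene and FPKM values for each of 9 libraries, with gene lengths and positions as other columns, per the file headers. TopHat2, HISAT2, HTSeq and the GRCm39 build are named per the submitters' processing notes. What each tool was used for, its version and the strand setting were not given in the sources used here. FPKM recomputed from the deposited counts and lengths differed by a relative 1.6e-07 at most. CPM here are counts divided by TMM-scaled library totals (factors 0.983 to 1.03).

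Counts of all 9 libraries were fitted together with edgeR 4.0.16 in R 4.3.3 (TMM, filterByExpr, quasi-likelihood F test, 1 mean per group; 6 residual degrees of freedom and a common biological coefficient of variation of 4.15%), with Benjamini-Hochberg adjustment over 14837 genes and a threshold of 0.05. The fit added a median of 43.4 prior degrees of freedom, drawn from all genes, which the tests and 95% intervals use. The script was tested on simulated data. FPKM ratios were compared by exact permutation over libraries. Alternatives were DESeq2 1.42.0, other scaling factors, no filter, only the groups compared, a replicate block and leaving out each library. Replicate pairs differed beyond sampling noise. The genes, pathway lists and marker lists were chosen with earlier results of these data known. From each pathway list up to 3 genes per comparison with the smallest adjusted p could be named, and for each of the 7 genes the 2 with the highest Pearson r (log2 CPM, prior count 2). Some genes that these rules select are not reported here.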

Additional observations from a re-analysis of the deposited data

How the results depend on the processing

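Of 336 alternative values for the 7 genes, 326 kept their direction or their lack of a call, 10 lost a call and 0 changed sign with a call. Leaving out a library of the group outside a comparison barely moved its fold changes, so the 326 overstate how firmly the calls hold. With scaling by library size alone, Nr3c1 gave a log2 fold change of -0.0886 in LPS 7d against LPS 1d (edgeR adjusted p = 0.148) and -0.11 in LPS 7d against PBS 1d (edgeR adjusted p = 0.0937), and the number of the 7 genes called fell to 5 in both comparisons. Leaving out 1 library at a time, Nr3c1 ranged between -0.21 and -0.10 in each of these comparisons (-0.2063 to -0.0967 against LPS 1d, -0.2123 to -0.1040 against PBS 1d), and Crhbp ranged between -0.48 and -0.28 in LPS 7d against PBS 1d. The number called then ran from 5 to 6 in LPS 7d against LPS 1d and from 4 to 6 in LPS 7d against PBS 1d, and stayed at 4 in LPS 1d against PBS 1d. DESeq2 called 7826, 4734 and 6603 genes in those comparisons, where edgeR called 8399, 5287 and 7289. The labels number the libraries of each group alike, but correlations of same-numbered deviations over all tested genes ran between -0.023 and 0.027. These values gave no sign of pairing by number. Pooled over all genes, they cannot show whether same-numbered libraries shared a litter or a processing step. With a replicate block, 8270, 5139 and 7144 genes and 6, 6 and 4 of the 7 were called. Crhr2 was counted at 37 to 96 reads per library. Hsd11b1 in LPS 1d against PBS 1d, at 90 to 138 reads per library, gave 0.0032 without LPS 1d replicate 1 and 0.37 without PBS 1d replicate 2, and passed in neither.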

Other observations

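Markers of other cell types gave these summed levels beside the 7 genes. Oligodendrocyte markers summed to 9290 to 9920 CPM in LPS 7d, 6920 to 6950 in LPS 1d and 6930 to 7300 in PBS 1d, and pericyte and smooth muscle markers to 269 to 276, 188 to 196 and 174 to 179 CPM in the same groups. Of the 5 pericyte and smooth muscle markers tested, 2 were higher and 2 lower in LPS 7d against LPS 1d. Against PBS 1d, 3 were higher and 0 lower in each LPS group. Astrocyte markers summed to 3860 to 3930 CPM in LPS 7d, 3850 to 3890 in LPS 1d and 3480 to 3570 in PBS 1d. Of these 6 markers, 4 were higher and 2 lower in LPS 7d against LPS 1d. In LPS 7d against PBS 1d 4 were higher and 1 lower, and in LPS 1d against PBS 1d 3 higher and 2 lower. Endothelial markers summed to 289 to 299 CPM in LPS 7d, 252 to 257 in LPS 1d and 236 to 246 in PBS 1d. Of these 6, 3 were higher and 3 lower in LPS 1d against PBS 1d. In LPS 7d 4 were higher and 1 lower against LPS 1d, and 4 higher and 0 lower against PBS 1d. Microglial markers lay closer together, at 215 to 221 CPM in LPS 7d, 206 to 213 in LPS 1d and 216 to 228 in PBS 1d. Habenular markers summed to 50.6 to 53.6 CPM in LPS 7d, 52.4 to 53.8 in LPS 1d and 75.7 to 80.4 in PBS 1d. Fibroblast and meningeal markers summed to 143 to 156 CPM in LPS 7d, 198 to 207 in LPS 1d and 137 to 144 in PBS 1d. Cortical markers summed to 850 to 874 CPM in LPS 7d, 1140 to 1180 in LPS 1d and 972 to 1010 in PBS 1d.

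Esr1, the estrogen receptor alpha gene, had 8.03, 6.97 and 7.57 CPM in LPS 7d, 6.71, 6.60 and 6.63 in LPS 1d and 11.5, 11.2 and 10.4 in PBS 1d, with log2 fold changes of -0.55 ± 0.13 (SE; edgeR adjusted p = 0.000433) in LPS 7d and -0.73 ± 0.13 (edgeR adjusted p = 7.79e-06) in LPS 1d against PBS 1d. Y-linked genes were near 0 in PBS 1d only. Sex, as read from these genes, and LPS therefore cannot be told apart in the comparisons with PBS 1d. This holds for Esr1, for each of the 7 genes and for the genes of every list.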
